A study of Mus musculus with 6 samples.

Results

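The 10 genes described here are known as regulators of quiescent, naive and stem-like T cells, all of them transcription factors or their direct inhibitors. They are Tcf7, Lef1, Bach2, Satb1, Foxo1, Foxo3, Klf2, Klf3, Id2 and Id3, taken from the deposited table by gene name, and they make up 10 of its 54532 genes and 10 of the 12873 genes with enough reads to test. The study compared GOT1-/- with WT T helper 17 (Th17) cells, 3 libraries of each. GOT1 is the cytosolic aspartate transaminase. GOT1-/- cells came from mice that lack it in T cells only, per the labels, and WT cells from wild-type C57BL/6 mice. Donors were 6 to 10 weeks old and of either sex, and no source used here names the promoter that drives the deletion. All cells of both groups were sorted as naive CD4 T cells, activated through CD3 and CD28, cultured with TGF-beta, IL-1beta, IL-6, IL-23 and blocking antibodies to IFN-gamma and IL-4, and lysed for RNA on day 4.

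Most of these factors keep T cells in a resting or self-renewing state and are lowered when a T cell becomes an effector, whereas Id2 is usually higher in effector cells. TCF1, the product of Tcf7, and LEF1 are HMG box proteins that keep the naive programme and the capacity for self-renewal, and both can bind beta-catenin and Groucho corepressors. FOXO1 and FOXO3 are forkhead factors that growth factor signals through AKT and SGK1 drive out of the nucleus, and FOXO1 activates Klf2, Il7r and other genes of homing and survival. KLF2 in turn activates S1pr1. BACH2 occupies AP-1 type sites and restrains effector genes, SATB1 organises chromatin loops, and ID2 and ID3 bind E proteins and keep them from DNA.

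Library totals were 17557436 to 22541410 counts in GOT1-/- and 16463752 to 21239075 in WT. Levels are given as CPM (the usual library-size-normalised counts, after TMM scaling of the library totals), and 3 counts, the limit that a count of 0 allows, equal 0.133 to 0.181 CPM, for counting error only. The deleted gene Got1 stood at 16, 15 and 17.5 CPM in GOT1-/- replicates 1 to 3, against 166, 165 and 174 CPM in WT replicates 1 to 3. In T cell identity, Cd4 averaged 641 ± 9.9 CPM in GOT1-/- and 681 ± 9.48 CPM in WT cells (SD, n = 3 each), and Cd3e, Trac and Il17a were all well detected. The labels do not tell whether replicates are separate animals, so p-values cover the spread between these libraries, which may be technical. Every adjusted p below is two-sided and comes from the quasi-likelihood test of edgeR, with Benjamini-Hochberg adjustment for the 12873 genes tested, and a gene is called when it lies under 0.05.

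Of the 10 regulators 9 fell in GOT1-/- cells, none rose, and Id3 was not called. In the background of all genes tested 43.8% were called, 21% lower and 22.9% higher. Among 830 tested genes that the deposited table assigns to a transcription factor family 48.4% were called, 38.4% lower and 10% higher. In all 9 the libraries of the 2 genotypes did not overlap, as in 53.4% of all genes tested (25.8% with GOT1-/- lower and 27.7% with GOT1-/- higher). Klf3 and Tcf7 were called and at least 2-fold lower, as were 1.8% of all genes. The median log2 fold change was -0.48 over the 10 regulators, -0.217 over those 830 genes and 0.009 over all genes. Summed over the 10, the level was 3061, 3020 and 2915 CPM in GOT1-/- replicates 1 to 3, against 4227, 4372 and 4250 CPM in WT replicates 1 to 3. The falls formed a graded series: Klf3, Tcf7 and Klf2 were lower by 2.78-, 2.03- and 1.99-fold, Bach2 by 1.64-fold, Foxo1, Lef1, Foxo3 and Satb1 by 1.28- to 1.42-fold, and Id2 by 1.17-fold. In these bulk samples fewer cells that express a gene and less RNA per cell cannot be told apart.

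**Figure D1:**
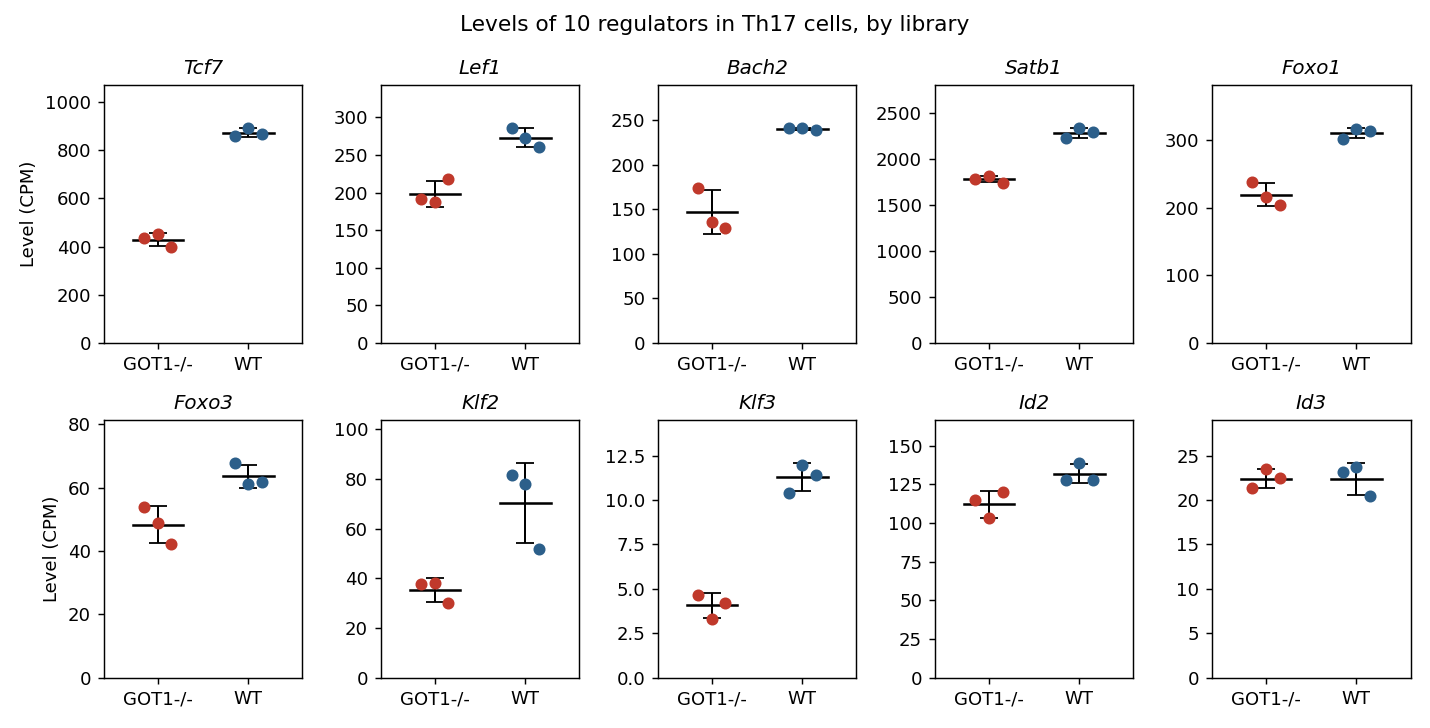
Level of each regulator in CPM (vertical axes, starting at 0) in the 3 GOT1-/- libraries (red, left) and the 3 WT libraries (blue, right), with each replicate as a point, the mean as a line and the SD as a bar. Points of the 2 genotypes do not overlap in any panel but that of Id3, and the gap is widest in relative terms for Klf3 (4.07 CPM in GOT1-/- and 11.3 CPM in WT cells).

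Both HMG box genes fell. Tcf7 (ENSMUSG00000000782, GRCm38 chromosome 11, 52252371 to 52283014, minus strand) stood at 436, 452 and 400 CPM in GOT1-/- replicates 1 to 3, against 859, 892 and 868 CPM in WT replicates 1 to 3. The highest GOT1-/- library was thus far below the lowest WT library, and the log2 fold change was -1.02 (SE 0.07, adjusted p = 1.2e-08). Per-gene counts do not separate the long TCF1 isoforms, which carry the beta-catenin binding domain, from the short ones. Lef1 (ENSMUSG00000027985, chromosome 3, 131110471 to 131224356, plus strand) stood at 191, 187 and 218 CPM in GOT1-/-, against 286, 273 and 260 CPM in WT replicates 1 to 3. Its genotypes also did not overlap, but GOT1-/- replicate 3, the lowest library for Tcf7, was the highest of its group for Lef1. The log2 fold change of Lef1 was -0.46 (SE 0.07, adjusted p = 9.39e-05).

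Within each library the ratio of Tcf7 to Lef1 counts, which no scaling between libraries can alter, was 2.29, 2.42 and 1.84 in GOT1-/- and 3, 3.27 and 3.34 in WT replicates 1 to 3. All GOT1-/- ratios lay below all WT ratios, a difference of -0.56 on the log2 scale. The two-sided exact permutation p was 0.1, the smallest that 3 against 3 libraries can give, or 0.2 after Benjamini-Hochberg adjustment over 4 pairs of related genes. The ratio is not free of the length trend described below, as deposited lengths are 2625 bp for Tcf7 and 8788 bp for Lef1. With that trend removed Tcf7 was at -1.16 and Lef1 at -0.28 in log2 fold change. Of their relatives, Tcf7l1 fell to 4.28 ± 0.72 CPM in GOT1-/- cells, against 6.49 ± 0.769 CPM in WT cells (log2 fold change -0.59, adjusted p = 0.00862), and Tcf7l2 had too few reads to test. Counted per kilobase of deposited gene length and scaled to the same sum in every library (TPM), Tcf7 made up 87.3 ± 1.52% of the sum over these 4 TCF/LEF genes in GOT1-/- and 91 ± 0.484% in WT cells. On that per-length scale Tcf7 ranked 4th of the 830 transcription factor genes in GOT1-/- cells, at 462 ± 42.8, and 1st in WT cells, at 1031 ± 21.1. In WT cells Junb, the next gene, stood at 1019 ± 111 on the same scale. In GOT1-/- cells Junb, Ybx1 and Irf4 stood above Tcf7, at 1205 ± 110, 883 ± 17.7 and 716 ± 23.2 (named after their values were seen).

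Both Krüppel-like factors fell, Klf3 the most of the 10 genes. Klf2 (ENSMUSG00000055148, chromosome 8, 72319033 to 72321656, plus strand) stood at 37.8, 38.2 and 29.9 CPM in GOT1-/-, against 81.5, 77.9 and 51.8 CPM in WT replicates 1 to 3. The groups did not overlap, although WT replicate 3 lay well under the other WT libraries. The log2 fold change was -1.0 (SE 0.14, adjusted p = 2.02e-05), and it was -1.18 without that library. Klf3 (ENSMUSG00000029178, chromosome 5, 64803388 to 64832901, plus strand), a repressor that binds the same CACCC-type elements, had 97, 75 and 72 counts in GOT1-/-, against 206, 256 and 188 counts in WT replicates 1 to 3. That is 4.68, 3.33 and 4.21 CPM in GOT1-/-, against 10.4, 12 and 11.4 CPM in WT libraries, with no overlap. Its log2 fold change was -1.47 (SE 0.15, adjusted p = 1.13e-06), the 4th lowest of the 830 transcription factor genes, where Tcf7 came 17th and Klf2 18th.

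Among the other Krüppel-like factors, Klf7 (-0.69), Klf9 (-0.56), Klf13 (-0.43), Klf11 (-0.38) and Klf10 (-0.37) fell in log2 fold change, with adjusted p from 0.000106 to 0.0174. The call of Klf11 was lost without GOT1-/- replicate 3 or WT replicate 1, with adjusted p up to 0.105. Klf16 rose to 58.8 ± 3.82 CPM in GOT1-/- cells, against 38.6 ± 3.39 CPM in WT cells (0.60, adjusted p = 3.3e-05), a difference that was 0.35 with the trends of all genes over length and GC content removed. Klf6, the most abundant of the family in CPM, stood at 313 ± 19.8 CPM in GOT1-/- and 320 ± 12.2 CPM in WT cells and was not called (adjusted p = 0.736). Klf4 and Klf8 were not called either (adjusted p = 0.159 and 0.259). Over the 17 Krüppel-like genes looked up, Klf2 contributed 11.8 ± 1.46% of the summed per-length level in GOT1-/- and 19.6 ± 3.75% in WT cells. The ratio of Klf2 to Klf3 counts was 8.08, 11.5 and 7.1 in GOT1-/- and 7.83, 6.48 and 4.56 in WT replicates 1 to 3, and the groups overlapped (exact permutation p = 0.2). Klf2 and Klf3 also differ in deposited length (1847 and 11243 bp). With the length trend removed they were at -1.17 and -1.23 in log2 fold change.

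The start-site windows of Tcf7, Klf2 and Klf3, the genes with the deepest falls, are printed with that of Id3, which was not called, since these 4 mark the ends of the series. They run from 250 bases before to 50 bases after the start listed by RefSeq on GRCm38.p6, and Tcf7 is shown at the more downstream of its 2 listed starts, chosen because that window held more matches. Capitals mark a match on either strand to any of the motifs GTAAACA (forkhead), CTTTGAA or CTTTGAT (TCF and LEF), TGANTCA (AP-1 and BACH2), GGGTGTGG (Krüppel-like), CAGGTG or CAGCTG (E-box), none of which overlap each other there.
Tcf7 chr11:52282546-52282845 (minus strand): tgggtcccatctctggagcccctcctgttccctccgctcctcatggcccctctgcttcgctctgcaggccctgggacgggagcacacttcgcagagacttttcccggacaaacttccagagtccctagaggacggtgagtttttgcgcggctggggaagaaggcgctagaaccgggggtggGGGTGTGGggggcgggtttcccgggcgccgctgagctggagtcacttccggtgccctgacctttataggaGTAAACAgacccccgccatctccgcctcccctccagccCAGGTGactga
Klf2 chr8:72318812-72319111 (plus strand): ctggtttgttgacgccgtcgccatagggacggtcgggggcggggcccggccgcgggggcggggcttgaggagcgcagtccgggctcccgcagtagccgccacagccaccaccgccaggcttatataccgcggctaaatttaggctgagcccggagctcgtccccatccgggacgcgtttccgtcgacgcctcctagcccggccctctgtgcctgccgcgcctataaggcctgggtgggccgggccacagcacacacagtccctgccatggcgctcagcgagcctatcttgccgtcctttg
Klf3 chr5:64803271-64803570 (plus strand): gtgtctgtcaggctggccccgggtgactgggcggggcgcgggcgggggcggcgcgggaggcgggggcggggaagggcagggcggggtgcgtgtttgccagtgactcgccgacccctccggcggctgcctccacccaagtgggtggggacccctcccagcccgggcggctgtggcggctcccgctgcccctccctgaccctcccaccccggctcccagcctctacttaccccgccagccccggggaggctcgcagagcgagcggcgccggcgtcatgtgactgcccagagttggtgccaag
Id3 chr4:136143572-136143871 (plus strand): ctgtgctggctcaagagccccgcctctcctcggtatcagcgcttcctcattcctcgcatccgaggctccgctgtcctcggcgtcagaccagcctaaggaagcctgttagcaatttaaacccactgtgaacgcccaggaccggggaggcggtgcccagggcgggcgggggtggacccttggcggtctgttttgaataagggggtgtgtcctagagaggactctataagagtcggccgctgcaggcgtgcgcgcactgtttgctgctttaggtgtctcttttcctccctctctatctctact
The Tcf7 window held a GGGTGTGG match that begins 69 bases upstream of the listed start, a GTAAACA match beginning 1 base and a CAGGTG match beginning 39 bases downstream of it. Windows of Klf2, Klf3 and Id3 held none of the motifs. Across all 32851 windows of the table, GTAAACA occurred in 3.65%, GGGTGTGG in 3.56%, CAGGTG in 20.2% and CAGCTG in 16.3%, as a measure of how often such letters occur. CTTTGAA occurred in 5.14%, CTTTGAT in 3.73% and TGANTCA in 7.81% of all windows and in none of the 18 windows listed for the 10 regulators. Among the 12142 windows of tested genes these shares were 3.59%, 2.47% and 5.02%. There GTAAACA occurred in 2.54%, GGGTGTGG in 3.81%, CAGGTG in 17.9% and CAGCTG in 15.1%. E-box letters were also found at Lef1, Satb1 and Id2. The window of the other Tcf7 start held 1 CAGCTG match and no other motif. Klf2, Klf3 and Id3 had 1 listed start each, so no such choice of window was made for them. A match is a description of the letters, not of a bound site.

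Both FOXO genes fell. Foxo1 (ENSMUSG00000044167, chromosome 3, 52268336 to 52353221, plus strand) stood at 237, 215 and 204 CPM in GOT1-/-, against 301, 316 and 313 CPM in WT replicates 1 to 3, with no overlap. Its log2 fold change was -0.50 (SE 0.07, adjusted p = 2.78e-05). Foxo3 (ENSMUSG00000048756, chromosome 10, 42181841 to 42276755, minus strand) stood at 53.8, 48.7 and 42.3 CPM in GOT1-/-, against 67.9, 61.2 and 61.8 CPM in WT replicates 1 to 3. Here too all GOT1-/- libraries were lower (log2 fold change -0.40, SE 0.09, adjusted p = 0.00177). The third FOXO gene with enough reads, Foxo4, was at 44.6 ± 4.32 CPM in GOT1-/- and 44 ± 1.15 CPM in WT cells (adjusted p = 0.847). The ratio of Foxo1 to Foxo3 counts was 4.41, 4.42 and 4.83 in GOT1-/- and 4.44, 5.16 and 5.07 in WT replicates 1 to 3, with overlap (exact permutation p = 0.2).

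Of 14 genes listed as FOXO targets 11 fell, 1 rose and 2 were not called, with a median log2 fold change of -0.49. Among all genes tested 21% were called lower and 22.9% higher. The pro-apoptotic gene Bcl2l11 fell to 38.1 ± 5.36 CPM in GOT1-/- cells, against 93 ± 6 CPM in WT cells (log2 fold change -1.29, adjusted p = 3.95e-08). Fbxo32, a ubiquitin ligase gene induced by FOXO factors in wasting muscle, fell by 0.79, Sesn3, a sestrin that restrains mTORC1, fell by 0.78, and Pik3ip1, an inhibitor of PI3 kinase, fell by 0.62 on the log2 scale. Bcl6 fell by 1.53. With the length trend of all genes removed, the fall of Sesn3, a long gene, was 0.46. The cyclin-dependent kinase inhibitor gene Cdkn1b averaged 121 ± 13.1 CPM in GOT1-/- and 164 ± 4.98 CPM in WT cells (adjusted p = 0.000272). Sod2, the mitochondrial superoxide dismutase gene, rose to 97.9 ± 6.53 CPM in GOT1-/- cells, against 74 ± 2.11 CPM in WT cells (adjusted p = 0.00032). Irs2 and Gadd45a were not called (adjusted p = 0.415 and 0.145), although Irs2 was called lower without GOT1-/- replicate 1 (adjusted p = 0.0446).

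Genes that control FOXO proteins were divided. Of 18 such genes 10 fell, 3 rose and 5 were not called, beside 21% lower and 22.9% higher among all genes tested. Those that fell included both antagonists and activators of AKT signalling: the phosphatase gene Phlpp1 (log2 fold change -0.96), the mTORC2 subunit gene Rictor (-0.77), the PI3 kinase gene Pik3ca (-0.45) and Sgk1 (-0.48). Sgk1, which in Th17 cells phosphorylates FOXO1 and relieves its restraint of Il23r, averaged 210 ± 9.52 CPM in GOT1-/- and 293 ± 25.7 CPM in WT cells (adjusted p = 6.03e-05). Akt1, Akt2 and Pik3cd rose by 0.20 to 0.21 with adjusted p from 0.0154 to 0.0482, and none of the 3 was called without GOT1-/- replicate 2, without WT replicate 2 or at an adjusted p under 0.01. Akt1 was also not called without WT replicate 3, with library totals or with the length trend removed (0.17, adjusted p = 0.0747), and with the length and GC trends removed it was at 0.03 (adjusted p = 0.696). Pik3cd was also not called without GOT1-/- replicate 1 or WT replicate 3, or with DESeq2, its size factors, library totals or a stricter filter. Of the 18 genes, 7 were called lower and 2 higher with the length trend removed, and 7 lower and 3 higher with both trends removed. In those 2 fits Rictor was at -0.43 and -0.37 and Pik3ca at -0.26 and -0.17, still called lower, while Phlpp1 was at -0.87 and -0.98 and Sgk1 at -0.48 and -0.47. Pik3r1 and Mtor were not called (adjusted p = 0.421 and 0.487), although Pik3r1 was called higher with both trends removed (0.18, adjusted p = 0.0138). FOXO activity is set by phosphorylation and nuclear exclusion, which RNA counts do not measure.

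Bach2 (ENSMUSG00000040270, chromosome 4, 32238804 to 32586108, plus strand) stood at 174, 136 and 129 CPM in GOT1-/-, against 241, 241 and 239 CPM in WT replicates 1 to 3. WT libraries were nearly equal while GOT1-/- replicate 1 lay above the other 2, still with no overlap between genotypes. The log2 fold change was -0.71 (SE 0.09, adjusted p = 1.13e-05), between -0.85 and -0.63 when any library was left out. Its paralog Bach1 fell to 19.7 ± 1.28 CPM in GOT1-/- cells, against 28.7 ± 3.99 CPM in WT cells (-0.54, adjusted p = 0.000605). Prdm1, which encodes the effector repressor BLIMP1 and is itself restrained by BACH2, was low, at 2.1 ± 0.0474 CPM in GOT1-/- and 2.92 ± 0.257 CPM in WT cells, and was not called (adjusted p = 0.0759). Among the small MAF genes whose products pair with BACH proteins, Mafk and Mafg rose slightly (0.25 and 0.19, adjusted p = 0.0237 and 0.0473) and Maff was not called (0.374). Both calls were lost at an adjusted p under 0.01, after the correction for length and GC content described below, and without GOT1-/- replicate 2 or WT replicate 3. Mafg overlaps Sirt7 on its own strand, which has a mean of 1138.7 counts, so the counts of Mafg are uncertain.

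Satb1 (ENSMUSG00000023927, chromosome 17, 51736187 to 51833290, minus strand) had the most reads of the 10 genes. It stood at 1790, 1814 and 1744 CPM in GOT1-/-, against 2229, 2336 and 2297 CPM in WT replicates 1 to 3. Libraries of each genotype were tightly grouped and did not overlap, with a log2 fold change of -0.36 (SE 0.06, adjusted p = 0.000183). Its deposited length of 19027 bp is the longest of the 10. Of the 9 regulators that fell, Satb1 alone was not called after a correction for gene length (log2 fold change 0.03, adjusted p = 0.812).

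That correction removes a trend which ran through the whole data set and differed between the genotypes. A technical bias over length and an effect of genotype on long transcripts cannot be told apart here, and neither was tested. Corrected values are therefore an alternative reading, not a truer one. Levels of long transcripts were lower and those of short ones higher in GOT1-/- libraries: across 11526 protein-coding genes, which are not independent replicates, Spearman's rho of deposited length with each library's log2 CPM, centred per gene, was -0.172, -0.345 and -0.446 in GOT1-/- and 0.342, 0.287 and 0.38 in WT replicates 1 to 3. Of 291 genes of at least 15 kb, 63.6% were called lower and 4.12% higher, with a median log2 fold change of -0.393, beside -0.36 for Satb1. Lef1, Foxo1, Foxo3, Bach2 and Klf3 have deposited lengths of 7571 to 11243 bp, and 43.5% of the 2706 genes of at least 7 kb were called lower and 10.6% higher. The order of the 3 GOT1-/- libraries was that of their length trends in Bach2, Foxo1 and Foxo3, and was not in Lef1, Klf3 and Satb1. Tcf7, Klf2, Id2 and Id3 are shorter than 3 kb, a class in which 9.14% of 4353 genes were called lower and 32.9% higher.

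With the length trend removed, 8 of the 10 regulators were called lower and none higher. Of all genes 19.6% were then called lower and 21% higher, and of the transcription factor genes 34.7% and 10.6%. Tcf7 and Klf2 then fell by 1.16 and 1.17 and Klf3 by 1.23 on the log2 scale, so that these 3 became nearly equal. Bach2 fell by 0.50, Foxo1 by 0.33, Lef1 by 0.28 and Foxo3 by 0.27, with adjusted p from 2.55e-05 to 0.0124. Id2 fell by 0.37 (adjusted p = 0.000257). With the trends over both length and GC content removed, 9 were called lower, Id3 among them (-0.25, adjusted p = 0.0208) and Satb1 not (0.05, adjusted p = 0.62). Of all genes 20.2% were then called lower and 21.5% higher, and of the transcription factor genes 34.3% and 8.19%.

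**Figure D2:**
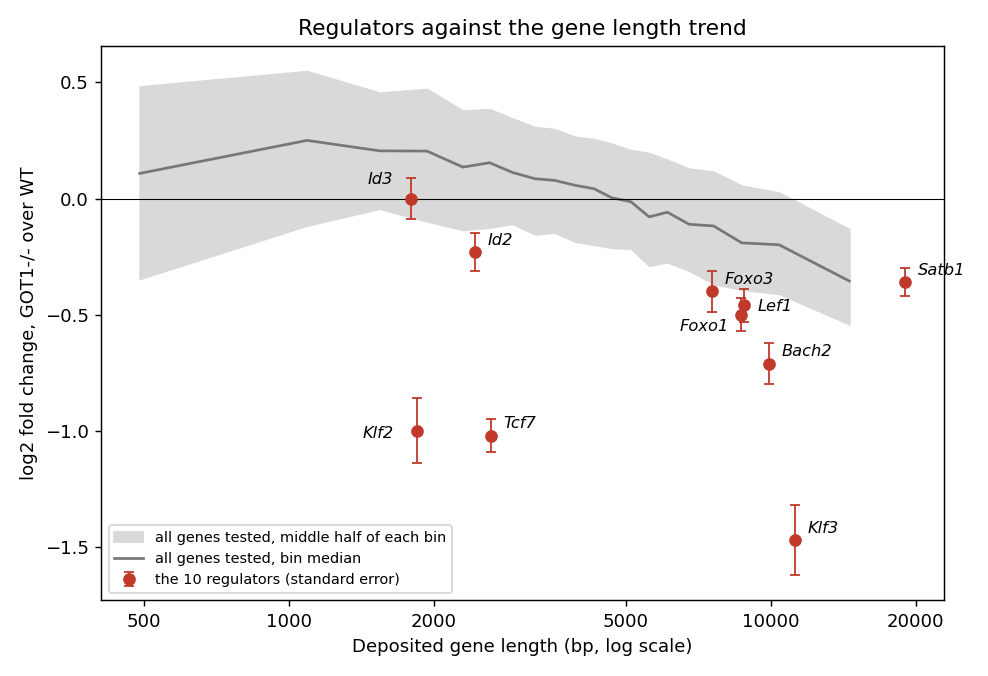
Log2 fold change of GOT1-/- over WT (vertical axis) against deposited gene length in bp (horizontal axis, log scale) for the 10 regulators (red, bars are standard errors), with the median and quartiles of all 12873 tested genes in 20 bins of equal size (grey). The grey median declines with length, Satb1 (-0.36) lies at the level its right end reaches, and Tcf7 (-1.02), Klf2 (-1.0) and Klf3 (-1.47) lie far under it.

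**Figure D3:**
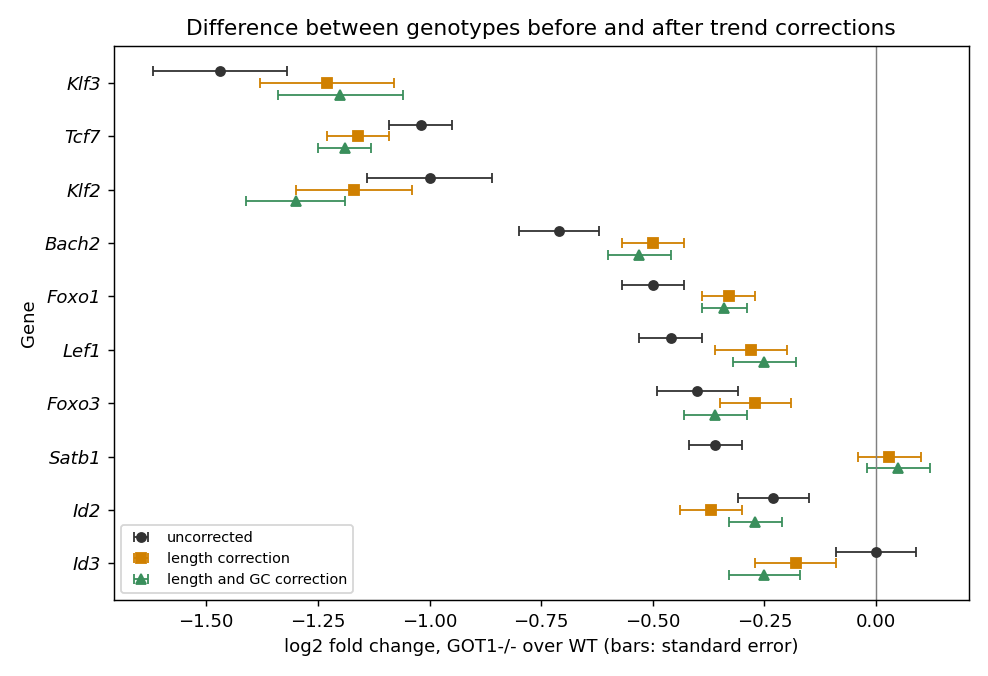
Log2 fold change of GOT1-/- over WT (horizontal axis) for each regulator, uncorrected (circles), with the length trend removed (squares) and with the length and GC trends removed (triangles), bars being standard errors. Satb1 moves from -0.36 to 0.03 and 0.05, while Tcf7 and Klf2 move further below 0 and Klf3 stays at or below -1.2.

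The Id genes were the least altered. Id2 (ENSMUSG00000020644, chromosome 12, 25093799 to 25097140, minus strand), which favours effector cells, stood at 115, 103 and 120 CPM in GOT1-/-, against 128, 139 and 128 CPM in WT replicates 1 to 3. The groups did not overlap but came close (log2 fold change -0.23, SE 0.08, adjusted p = 0.0207). The call was lost without GOT1-/- replicate 2 (-0.17, adjusted p = 0.14) or WT replicate 2 (-0.19, adjusted p = 0.115). Id3 (ENSMUSG00000007872, chromosome 4, 136143497 to 136145755, plus strand), linked to naive and memory precursor cells, stood at 21.3, 23.5 and 22.5 CPM in GOT1-/-, against 23.2, 23.7 and 20.4 CPM in WT replicates 1 to 3. Its groups overlapped, with a fold of 0.999 for GOT1-/- over WT (SE 0.09 on the log2 scale, adjusted p = 0.99). The ratio of Id2 to Id3 counts was 5.39, 4.37 and 5.32 in GOT1-/- and 5.52, 5.84 and 6.29 in WT replicates 1 to 3, all lower in GOT1-/- (exact permutation p = 0.1, or 0.2 adjusted over the 4 pairs). Id1 was at 4.02 ± 0.88 CPM in GOT1-/- and 4.01 ± 1.82 CPM in WT cells (adjusted p = 0.967).

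The E proteins that ID2 and ID3 bind differed in direction. Tcf3, which encodes E2A, rose to 122 ± 3.54 CPM in GOT1-/- cells, against 99.1 ± 5.6 CPM in WT cells (log2 fold change 0.31, adjusted p = 0.00212). Tcf12, which encodes HEB, fell to 61.1 ± 3.56 CPM in GOT1-/- cells, against 87.4 ± 4.71 CPM in WT cells (-0.51, adjusted p = 4.68e-05), and Tcf4 fell by 0.61. Tcf12 and Tcf4 are long genes, of 15529 and 27382 bp. With the length and GC trends removed none of the 3 was called (adjusted p from 0.065 to 0.379).

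Ordered by per-length level, the regulators kept the same top 3 and bottom 3 in both genotypes. In GOT1-/- cells Tcf7 (462 ± 42.8), Satb1 (264 ± 13.7) and Id2 (130 ± 7.13) led, followed by Foxo1 (71.3 ± 7.05), Lef1 (63.5 ± 3.33), Klf2 (54.1 ± 8.83) and Bach2 (41.7 ± 7.63). In WT cells Tcf7 (1031 ± 21.1), Satb1 (373 ± 10.9) and Id2 (167 ± 6.69) led, followed by Klf2 (118 ± 25.6), Foxo1 (111 ± 3.67), Lef1 (96.3 ± 3.39) and Bach2 (74.9 ± 0.812). Id3, Foxo3 and Klf3 closed both orders, Klf3 at 1.02 ± 0.166 in GOT1-/- and 3.11 ± 0.226 in WT cells. Neighbours whose ranges overlapped were Foxo1 with Lef1, Klf2 with Bach2 and Bach2 with Id3 in GOT1-/-, and Klf2 with Foxo1 in WT cells.

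Of 15 surface and survival genes of naive and stem-like cells 14 were tested, of which 10 fell, 1 rose and 3 were not called, with a median log2 fold change of -0.49. The shares over all genes tested were 21% called lower and 22.9% higher. S1pr1, the sphingosine phosphate receptor for exit from lymph nodes, fell to 123 ± 9.13 CPM in GOT1-/- cells, against 231 ± 8.93 CPM in WT cells (-0.91, adjusted p = 9.61e-08). Il7r fell by 1.4, Slamf6, a marker of stem-like cells, by 0.95, and Nsg2 by 0.76 on the log2 scale. Ccr7, a chemokine receptor for entry into lymph nodes, was at 693 ± 7.8 CPM in GOT1-/- and 748 ± 7.39 CPM in WT cells and was not called (adjusted p = 0.158), though it was called lower with the length trend removed (-0.28, adjusted p = 0.000824). Igfbp4 was not called (adjusted p = 0.702) except with the length and GC trends removed (-0.15, adjusted p = 0.0375). Bcl2, the anti-apoptotic gene in that list, rose to 338 ± 20.3 CPM in GOT1-/- cells, against 247 ± 14.4 CPM in WT cells (0.45, adjusted p = 8.56e-05).

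Among partners and feedback genes of TCF1 and LEF1, 16 of 17 were tested, of which 7 fell, 5 rose and 4 were not called. As a background, 21% of all genes tested were called lower and 22.9% higher. The corepressor gene Tle4 fell to 24.1 ± 1.27 CPM in GOT1-/- cells, against 38.1 ± 0.79 CPM in WT cells (-0.66, adjusted p = 1e-05), and the short Groucho relative Aes rose to 562 ± 38 CPM in GOT1-/- cells, against 432 ± 35.4 CPM in WT cells (0.38, adjusted p = 0.000638). Tle3 was not called (adjusted p = 0.811), but was called higher with the length trend removed (0.23, adjusted p = 0.00983). The beta-catenin destruction complex genes Apc (-0.66) and Gsk3b (-0.46) fell and Gsk3a (0.43) rose, while Axin1 was not called (adjusted p = 0.257). With the length and GC trends removed Apc was at -0.30, Gsk3b at -0.22, Gsk3a at 0.19 and Aes at 0.19, all 4 still called, and Tle4 was at -0.63. Axin2, a feedback target of beta-catenin with TCF and LEF proteins, averaged 7.73 ± 0.483 CPM in GOT1-/- and 11.6 ± 1.75 CPM in WT cells (-0.60, adjusted p = 0.00154). Nkd1, another target of that pathway, averaged 0.869 ± 0.265 CPM in GOT1-/- and 0.285 ± 0.089 CPM in WT cells and was called higher, on 15 to 20 counts in GOT1-/- and 4 to 6 counts in WT libraries.

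Of 12 other factors of quiescence 8 fell, none rose and 4 were not called, among the first Foxp1 (-0.79), the antiproliferative gene Btg1 (-0.33), Mxd4 (-0.33), Peli1 (-0.29) and Ets1 (-0.28). All genes tested gave 21% called lower and 22.9% higher. Ets1 and Mxd4 were not called with the length trend removed (adjusted p = 0.15 and 0.0572), nor Ets1 and Peli1 with the length and GC trends removed (adjusted p = 0.169 and 0.37, Peli1 at -0.07). Foxp1 was at -0.46 and Btg1 at -0.22 in that last fit, both still called. Bcl11b and Slfn2 were not called in the main fit (adjusted p = 0.12 and 0.0677). Slfn2 was called lower with the length trend removed (-0.39, adjusted p = 0.000365) and without GOT1-/- replicate 3. With the length and GC trends removed it was called lower too (-0.37, adjusted p = 0.000259). Bcl11b was called lower without GOT1-/- replicate 1 (adjusted p = 0.026). With the replicate number as a block 11 of the 12 were called lower, so Bcl11b, Slfn2 or both were called there. Of 9 tested effector regulators 3 fell, none rose and 6 were not called. Those that fell were Myc (-0.37), Runx3 (-0.23) and Irf4 (-0.19). Their share is near the 38.4% called lower among the 830 transcription factor genes, of which 10% were called higher. The call of Runx3 was lost without GOT1-/- replicate 2 or 3 or WT replicate 1 or 2, and that of Irf4 without GOT1-/- replicate 2 or WT replicate 1, with adjusted p up to 0.149. With upper-quartile scaling neither was called and 1 of the 9 was called higher. Bhlhe40 and Nfil3 were not called (adjusted p = 0.435 and 0.768), and Nfil3 was called lower with the length and GC trends removed (-0.19, adjusted p = 0.031).

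**Figure D4:**
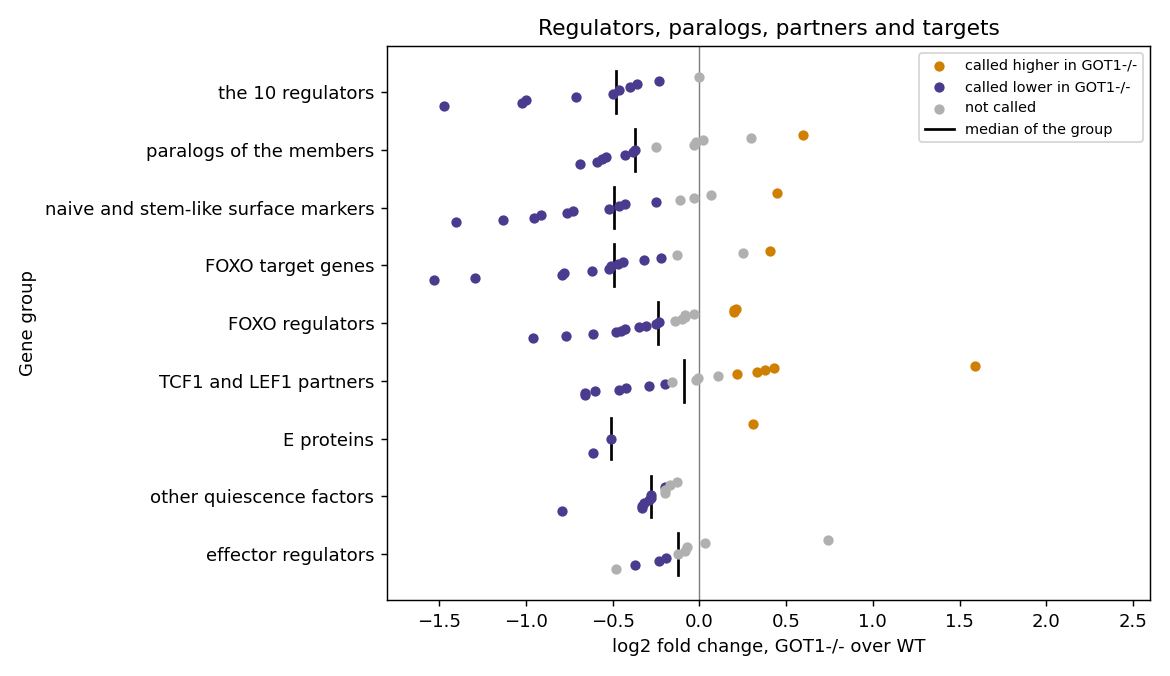
Log2 fold change of GOT1-/- over WT (horizontal axis) for each tested gene of 9 groups (rows), coloured by its call, with a black line at the group's median. The medians of the 10 regulators (-0.48), FOXO targets (-0.49) and naive and stem-like surface markers (-0.49) lie furthest left with that of the 3 E proteins (-0.51), and TCF1 and LEF1 partners spread to both sides.

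By likeness of pattern, measured as the root-mean-square difference from Tcf7 in log2 CPM centred on the mean of the 6 libraries, the nearest of 10320 protein-coding genes were Selenop (0.041), Myadm (0.048), Slamf6 (0.058), Card6 (0.058) and Ildr1 (0.058). With only 2 groups this measure is mostly the size of the difference between genotypes. Selenop, which encodes the selenium carrier selenoprotein P, averaged 52.1 ± 3.21 CPM in GOT1-/- and 105 ± 5.53 CPM in WT cells.

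Some of the 10 regulators are also made by other blood cells, Bach2 and Foxo1 by B cells among them. The summed level of 7 B cell markers ranged from 8.34 to 9.82 CPM in GOT1-/- and from 8.87 to 11.1 CPM in WT libraries. None of the 4 tested was called. Most of that sum was Ebf1, which averaged 5.23 CPM in GOT1-/- and 7.02 CPM in WT cells (adjusted p = 0.0554). Cd79b averaged 2.07 CPM in GOT1-/- and 1.55 CPM in WT cells, and Ms4a1 averaged 0.0483 and 0.0156 CPM. Markers of myeloid cells were higher in GOT1-/-, 4 of 6 tested, at a summed 19.4 to 22.8 CPM in GOT1-/- and 5.26 to 9.2 CPM in WT libraries. All 4 gamma-delta T cell genes were higher, at a summed 13.8 to 15.9 CPM in GOT1-/- and 6.66 to 7.74 CPM in WT libraries. Mast cell and basophil markers were higher too, 4 of 4 tested, at 12 to 12.9 CPM in GOT1-/- and 3.03 to 3.85 CPM in WT libraries. Beside these counts, 22.9% of all genes tested were called higher and 21% lower. For genes under 3 kb these shares were 32.9% and 9.14%. Of 4 tested CD8 T and NK cell markers 1 rose, Nkg7, and 1 fell, Klrd1. Their sums were 53.2 to 58.2 CPM in GOT1-/- and 68.4 to 72.8 CPM in WT libraries. Klrd1 was most of these sums, at 36.8 CPM in GOT1-/- and 54.1 CPM in WT cells. Cd8a averaged 1.59 CPM in GOT1-/- and 0.965 CPM in WT cells and was not called (adjusted p = 0.0501). The part of such cells in the levels of the 10 regulators was not tested.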

How the data were processed

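Per the submitters' processing notes, reads were handled with STAR on the mouse build GRCm38. How reads were assigned to genes, on which strand and with which annotation, is not stated in any source used here, so reads of overlapping genes and close paralogs cannot be told apart with certainty. The authors deposited whole-number counts per gene, not normalized, for 54532 genes. Symbols of 27 genes that had become dates were restored from their IDs, and of 103 repeated symbols the copy with most reads kept the name. Gene lengths in bp are those of the deposited table.

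The comparison was run in R 4.3.3 with edgeR 4.0.16 (glmQLFit and glmQLFTest, filterByExpr with a minimum count of 10 and total of 15, TMM scaling, genotype as the only term). SEs were derived from the F statistic. No library repeats another: within a genotype, chi-square over genes was 3.76 to 13.7 times its degrees of freedom. Smooth trends over length, or length and GC content of the longest GENCODE M21 transcript (natural splines with 5 degrees of freedom, robust regression, prior count 2), were removed as offsets in 2 alternatives. Others were DESeq2 1.42.0, limma-voom (limma 3.58.1), other scalings, filters and threshold, a replicate block, and each library left out. The main fit was first tested on simulated data with known changes in 50 genes for each fold. It recovered 56% of 1.3-fold, 66% of 1.5-fold, 86% of 2-fold and 96% of 4-fold changes. Among 12726 genes 8 unchanged ones were called. A small difference can thus be missed. The simulation changed only those genes and held no trend over length, whereas 43.8% of genes were called in the data. Its rates therefore need not hold for the data.

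The regulators, gene lists and motifs were chosen with earlier results of these data known. The 4 ratios of related genes and the split by length class were chosen after the values were seen. Beside the 10 regulators, named genes are their paralogs, from each list up to 5 called genes of lowest adjusted p and up to 2 uncalled ones of highest CPM, and the 5 nearest to Tcf7. Others (Cdkn1b, Axin2, Nkd1, Bcl2, Sod2, Akt1, Akt2, Pik3cd, Junb, Ybx1, and marker genes named with their group) were chosen after their values were seen. Sequences are RefSeq windows on GRCm38.p6, and all 10 regulators matched by symbol. Some genes of the lists are counted in their group and not reported here by name.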

Additional observations from a re-analysis of the deposited data

How the results depend on the processing

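The number of all genes called, 5643, lay between 4008 and 5792 over 17 alternatives, and within that 4426 to 5718 with any library left out. Of the 10 regulators 8 or 9 were called lower and none higher in every alternative. Of 170 comparisons of a single regulator with an alternative, 164 kept direction and call. The exceptions were Satb1, at 0.03 with the length trend removed and 0.05 with the length and GC trends removed, Id2 at an adjusted p under 0.01 and without GOT1-/- replicate 2 or WT replicate 2, and Id3, called lower with the length and GC trends removed. Between settings, the median of all genes moved by less than 0.1 on the log2 scale.

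Of FOXO regulators 13 were called, against 8 at an adjusted p under 0.01, 9 with the length trend removed, 10 with the length and GC trends removed, and 8 to 13 with any library left out. E proteins called went to 0 with length and GC trends removed, and effector regulators called, 3 at first, became 5 there and 1 at an adjusted p under 0.01, with 1 to 3 over left-out libraries. In the group of small MAF genes and Prdm1, of which 2 were called, 1 was called with DESeq2, DESeq2 size factors in edgeR, library totals, no filter, a stricter filter or the length trend removed, 0 with the length and GC trends removed or at an adjusted p under 0.01, and 0 to 2 with a library left out. Among other genes, Nfil3 turned to -0.19 and Pik3r1 to 0.18 with length and GC trends removed, and Tle3 to 0.23 with the length trend removed. Of other quiescence factors, 8 called at first, 7 to 11 were called over the alternatives, all lower, with 11 under the replicate block. The cause of these changes in call was not tested for any setting.

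With the replicate number as a block 5792 genes and 9 regulators were called. The labels do not say that a number marks a shared animal or batch, and deviations of same-numbered libraries correlated at 0.059, -0.0258 and 0.0332, so the numbers were not taken as pairs; not every library correlated best with its own number. Precision rests on 3 libraries a genotype, and Nkd1 on at most 20 counts a library.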
